A study of Mus musculus with 8 samples.

Results

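Ptpn11, which encodes the tyrosine phosphatase Shp2, and the adaptors that link Shp2 to receptor tyrosine kinases (RTKs) were followed in whole mouse testis. The 10 genes were Ptpn11, Gab1, Gab2, Grb2, Sos1, Sos2, Frs2, Shc1, Irs1 and Irs2. Their probe sets were taken by gene name from the annotation of the array. A total of 9 of the 10 genes had probe sets, groups of short probes that read 1 transcript region each, and no probe set carried the name Frs2. The 9 genes had 21 of the 45037 probe sets that were analysed.

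Total RNA of testis was hybridized to Affymetrix mouse arrays, with 1 array for each of 2 genotypes at each of 4 ages, 8 arrays in all. The ages were called E16.5 for day 16.5 of fetal life, D3 for day 3 after birth, and 1W and 2W for the first and the second week after birth, and all mice were on the C57Bl/6 background. Both genotypes carried floxed Shp2 alleles. Shp2f/f mice were labelled as wild type, whereas SCSKO mice also had Amh-Cre, which is driven by the anti-Mullerian hormone promoter and removes Shp2 from Sertoli cells. The other cells of the testis kept the gene, and how many animals were pooled for an array was not stated. With 1 array per genotype and age there is no test within an age, and p-values measure the spread between these arrays. In such bulk tissue, fewer cells of a type and less RNA per cell cannot be told apart.

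Shp2 acts downstream of most RTKs. A ligand-bound receptor phosphorylates docking proteins such as Gab1, Gab2, Frs2, Irs1 and Irs2, and the tandem SH2 domains of Shp2 bind to the phosphotyrosines. Grb2 bridges phosphorylated receptors and Shc1 to the exchange factors Sos1 and Sos2, which load Ras with GTP and so start the Raf, Mek and ERK cascade. In the testis, RTK signals such as those of Kit in germ cells and of Ret, the receptor of GDNF, in spermatogonial stem cells are known to depend on these intermediates.

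Markers of several cell types and of other tissues differed between the arrays. Each of the 8 arrays was most like the array of the other genotype at the same age, with r from 0.993 to 0.997. Sertoli markers were present on all arrays, Amh, Dhh, Wt1 and Clu among them. The median difference of the 23 Sertoli markers (SCSKO minus Shp2f/f, log2) was, in order of age, -0.26, -0.08, -0.31 and 0.35, and at 2W 21 of the 23 were higher in SCSKO. Placental genes stood out on the E16.5 Shp2f/f array, where the summed intensity of 9 genes was 2630, against 293 in SCSKO. Epididymal genes summed to 696 and 3718 in Shp2f/f and SCSKO at 1W, and to 4941 and 2481 at 2W. These sums follow the brightest genes. Of the 11 genes, 5 were higher and 6 lower in SCSKO at 1W, with the same counts at 2W. At 2W, 10 of 10 genes of the serous lining were lower in SCSKO, with a median difference of -1.17, and 10 of 12 peritubular myoid genes were lower, with a median of -0.70. The 20 germ cell markers moved with age, by a median of -1.69 from E16.5 to D3 and of 1.49 from 1W to 2W. Between genotypes they had a median difference of -0.63 at E16.5, with 18 of 20 lower in SCSKO, and of 0.65 at D3, with 17 of 20 higher and 7 at least 2-fold apart. Since each genotype and age had 1 array, array and genotype cannot be told apart within an age. The part of these tissues in the values that follow was not tested.

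The deleted gene was examined first. Ptpn11 had 3 probe sets. The brightest, 1451225_at, read 9.03 and 8.90 (Shp2f/f, then SCSKO) at E16.5, 9.05 and 8.72 at D3, 9.10 and 9.0 at 1W, and 8.48 and 8.55 at 2W (log2 intensity). SCSKO was thus the lower array at 3 ages and the higher at 2W. The mean difference over the 4 ages was -0.13 ± 0.09 (SE, 4 pairs; 95% interval -0.33 to 0.08). It did not pass the test (limma adjusted p = 0.779, with an exact permutation p = 0.25, where 0.125 is the smallest that 4 pairs can give). Without D3 the mean difference was -0.056, and without 2W -0.19.

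The other Ptpn11 probe sets gave smaller mean differences. Probe set 1427699_a_at read 6.33 and 6.27 (Shp2f/f, then SCSKO) at E16.5, 6.60 and 6.38 at D3, 6.53 and 6.55 at 1W, and 6.18 and 6.17 at 2W, a mean difference of -0.07 (95% interval -0.25 to 0.11), which was -0.020 without D3. It followed the brightest probe set over the 8 arrays (r = 0.812), and both had their largest genotype difference at D3, at -0.34 and -0.22. The third, 1421196_at, lay below the median of its array on all 8 arrays, between 3.73 and 4.24, and did not follow the others (r = -0.299 and -0.487). No source used here places the 3 probe sets against the floxed exons, so they cannot show how far the allele was recombined. At D3, where the lower SCSKO value of both bright probe sets was found, the Sertoli markers had a median difference of -0.08 and the germ cell markers one of 0.65, and their part in the Ptpn11 difference was not tested.

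With age, Ptpn11 changed in the brightest probe set (limma F test over 3 steps between neighbouring ages, adjusted p = 0.046). It fell by 0.54 from 1W to 2W (95% interval of the difference -0.83 to -0.25, limma adjusted p = 0.049), and both 2W arrays lay below all 6 arrays of the younger ages. In 1427699_a_at the 2W arrays were the lowest as well, and the step was -0.37 (limma adjusted p = 0.110). The call was near the threshold. The adjusted p of the F test was 0.104 without E16.5, 0.093 without 1W and 0.571 without 2W, and that of the step was 0.075 without E16.5 and 0.073 without D3. The germ cell markers rose over the same step, 10 of 20 past the test and 0 in the other direction, where 3.86% of named genes rose. Other lists moved too. Of 23 Sertoli markers 4 rose and 2 fell, and the serous lining genes had a median step of -1.35. The part of these cells in the fall of Ptpn11 was not tested.

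**Figure D1:**
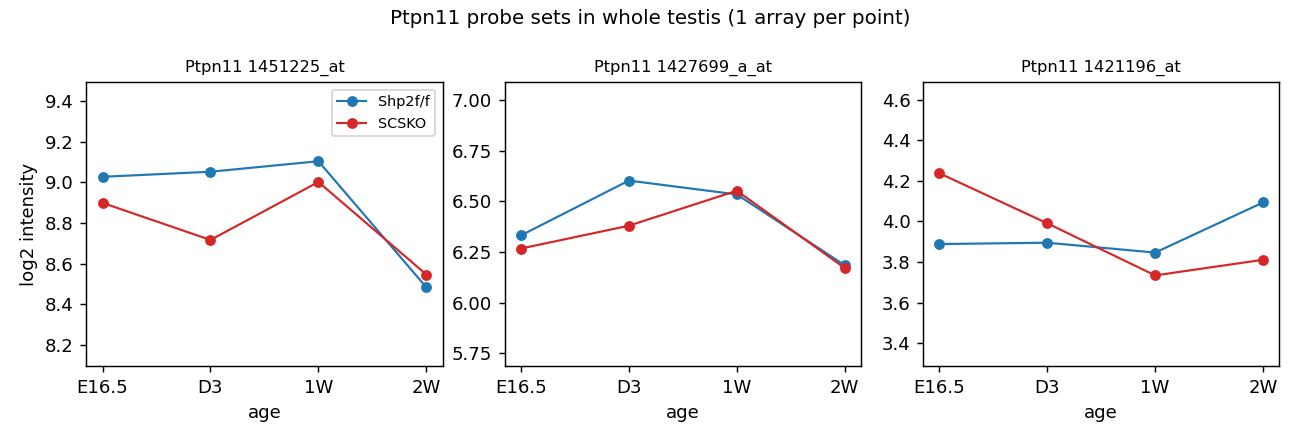
Log2 intensity of the 3 Ptpn11 probe sets (y axes, one scale width per panel) against age (x axis) in Shp2f/f (blue) and SCSKO (red) testis, 1 array per point and no error bars. The 2 bright probe sets are lowest at 2W in both genotypes and are furthest apart between genotypes at D3, by -0.34 and -0.22, whereas 1421196_at lies near 4 and follows neither.

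The docking proteins differed in their course over age. Gab2, a scaffold that recruits Shp2 and PI3K to activated receptors, rose most. Its probe set 1439786_at read 5.83 and 5.91 (Shp2f/f, then SCSKO) at E16.5, 6.72 and 6.64 at D3, 7.31 and 6.80 at 1W, and 7.37 and 7.12 at 2W. The arrays of E16.5 and D3 did not overlap, and the step between them was 0.82 (95% interval 0.46 to 1.17, limma adjusted p = 0.011), with an adjusted p of 0.002 for the F test over age. The brightest Gab2 probe set, 1419829_a_at, rose in the same order, from 9.08 and 9.15 at E16.5 over 9.43 and 9.41 at D3 and 9.70 and 9.49 at 1W to 10.04 and 9.75 at 2W. Its F test passed (limma adjusted p = 0.013) and the pair correlated at r = 0.949 over the arrays. The third Gab2 probe set, 1420785_at, was below its array median on 7 of 8 arrays and lay between 4.49 and 5.07. Without E16.5 the adjusted p of the F test became 0.102 for 1439786_at and 0.112 for 1419829_a_at, and without 2W that of the latter was 0.055.

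Gab1, the close relative of Gab2, rose later. Probe set 1417694_at read 8.05 and 8.15 at E16.5, 8.15 and 8.10 at D3, 8.42 and 8.41 at 1W, and 8.74 and 8.5 at 2W, again with Shp2f/f first. Both arrays of 1W lay above the 4 younger arrays, and both of 2W above those of 1W. Its F test over age passed (limma adjusted p = 0.032), although no single step did. Probe set 1417693_a_at had the same course, from 7.99 and 7.94 at E16.5 to 8.39 and 8.27 at 2W (r = 0.941 between the probe sets), with a limma adjusted p of 0.053. The call of 1417694_at was lost without E16.5 (0.096), without D3 (0.066) and without 2W (0.128). The third Gab1 probe set, 1448814_at, lay between 3.33 and 4.05, below its array median throughout.

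Shc1, which couples receptors to Grb2, was highest at D3 and 1W. Probe set 1422854_at read 8.48 and 8.73 (Shp2f/f, then SCSKO) at E16.5, 9.01 and 9.14 at D3, 9.04 and 8.94 at 1W, and 8.54 and 8.39 at 2W. The 4 arrays of D3 and 1W lay above the 4 arrays of E16.5 and 2W. The step from E16.5 to D3 was 0.47 (95% interval 0.16 to 0.77, limma adjusted p = 0.048; F test 0.023), and the step from 1W to 2W was -0.53 and just missed the threshold (limma adjusted p = 0.061). The dimmer probe set 1422853_at had the same shape (r = 0.930), from 5.29 and 5.68 at E16.5 to 5.86 and 5.93 at D3, 6.05 and 5.93 at 1W, and 5.51 and 5.48 at 2W. The F test of 1422854_at gave an adjusted p of 0.072 without D3 and 0.059 without 2W, and the step that of 0.070 without 1W.

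The insulin receptor substrates Irs1 and Irs2, docking proteins of the insulin and IGF1 receptors, did not pass any test of age. Irs1 (1423104_at) was the steadiest bright member, with all 8 arrays between 9.50 and 9.79 and a limma adjusted p of 0.401. Irs2 (1443969_at) read 6.13 and 6.35 at E16.5, 6.40 and 6.28 at D3, 6.34 and 6.19 at 1W, and 6.24 and 5.76 at 2W (Shp2f/f, then SCSKO). The SCSKO array of 2W was the lowest of the 8, 0.48 below its Shp2f/f pair.

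Grb2, the adaptor shared by all these routes, showed small differences. Probe set 1418508_a_at read 8.48 and 8.60 at E16.5, 8.74 and 8.72 at D3, 8.91 and 8.98 at 1W, and 8.92 and 8.74 at 2W, with Shp2f/f first. Both arrays of E16.5 were the lowest, but the F test over age did not pass (limma adjusted p = 0.115). Probe set 1449111_a_at stayed between 7.37 and 7.76 (limma adjusted p = 0.344).

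The exchange factors Sos1 and Sos2 took different courses. Sos2 (1452281_at) read 7.13 and 6.77 (Shp2f/f, then SCSKO) at E16.5, 7.04 and 7.12 at D3, 7.19 and 7.06 at 1W, and 7.87 and 7.92 at 2W. Both genotypes were higher at 2W than all younger arrays, and the step from 1W was 0.77 (95% interval 0.45 to 1.08, limma adjusted p = 0.020; F test 0.005). Without 2W the adjusted p of the F test was 0.586. This step had the opposite sign to that of Ptpn11, and it coincided with the rise of the germ cell markers by a median of 1.49, whose part in it was not tested.

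Sos1 had 5 probe sets, which disagreed. The brightest, 1434389_at, read 8.49 and 8.31 at E16.5, 8.14 and 8.27 at D3, 8.18 and 8.17 at 1W, and 8.13 and 8.57 at 2W, and did not pass (limma adjusted p = 0.588 for age). The dimmer 1421884_at read 5.07 and 5.27, 5.73 and 5.71, 5.32 and 5.32, and 5.18 and 5.20 at the same ages. Its D3 arrays lay above all others, and its step from E16.5 to D3 was 0.55 (95% interval 0.29 to 0.81, limma adjusted p = 0.015; F test 0.021), with adjusted p of the F test of 0.054 without E16.5 and 0.590 without D3. The pair correlated at r = -0.443 over the 8 arrays, so that no single course over age can be given for Sos1. The other 3 Sos1 probe sets lay below the array median on all 8 arrays.

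**Figure D2:**
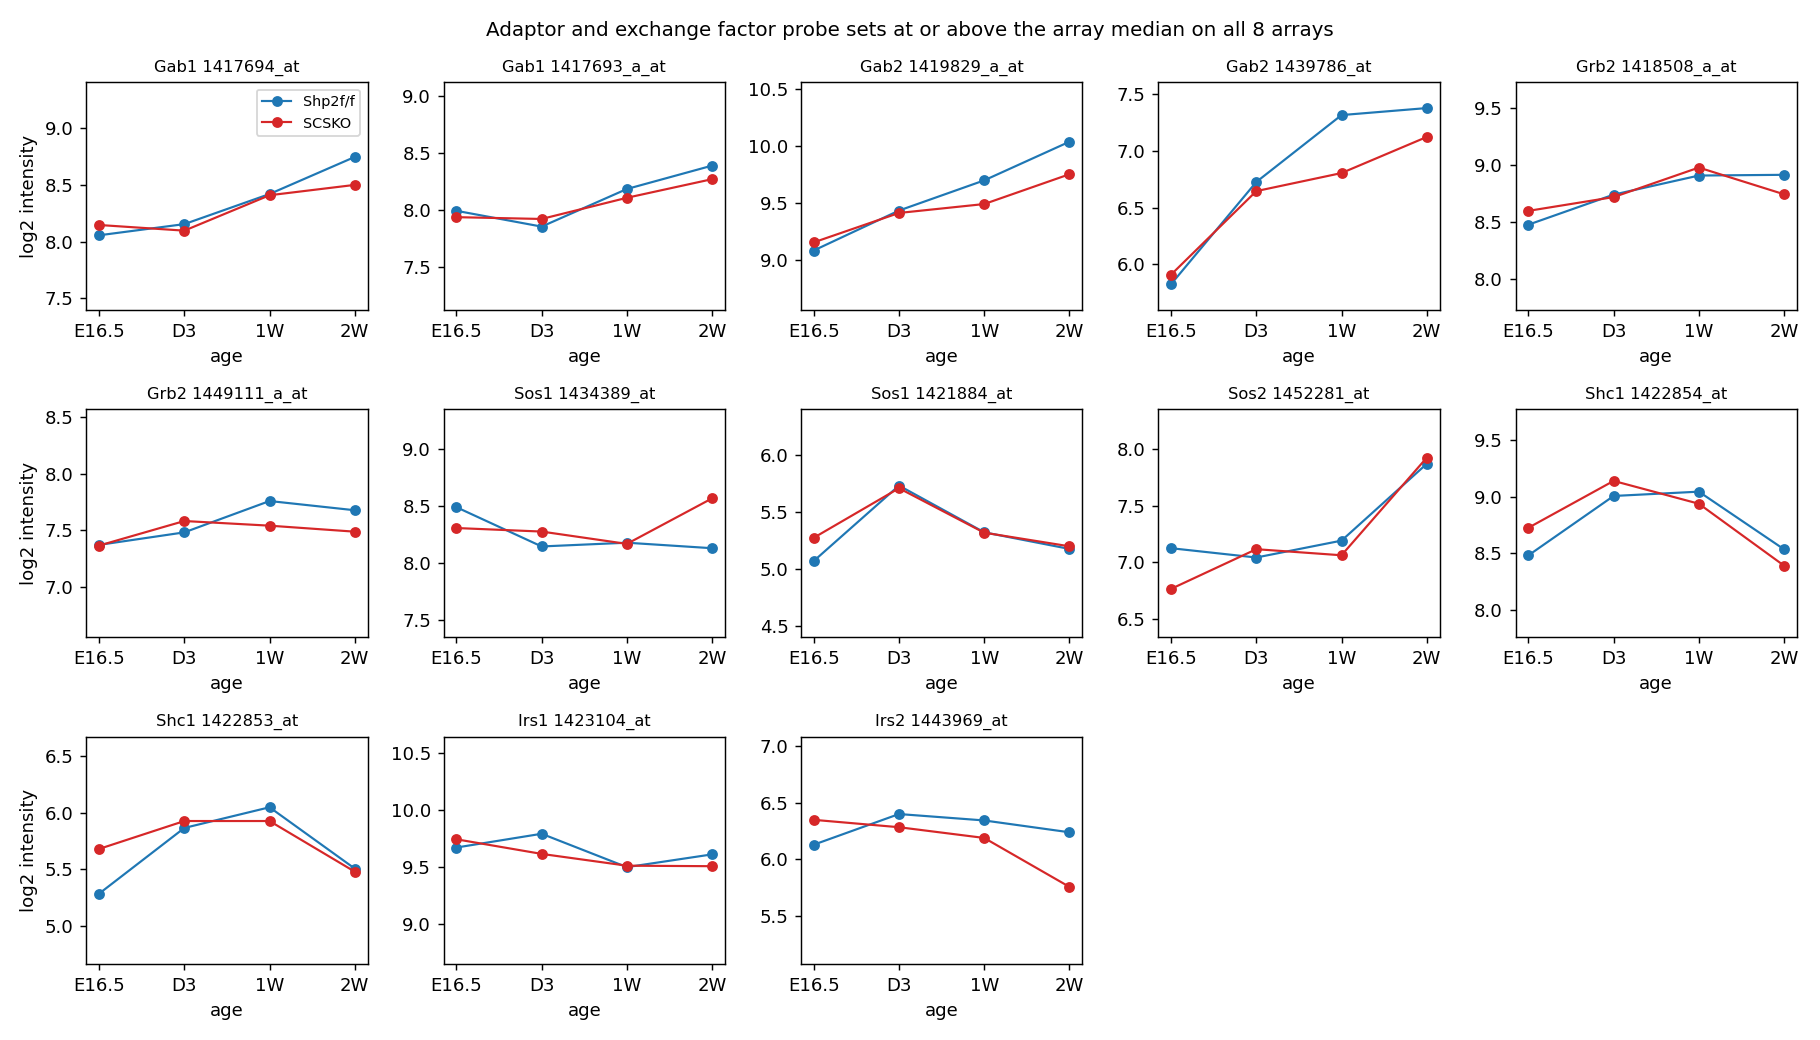
Log2 intensity (y axes, all panels spanning the same range) against age (x axis) for the 13 adaptor and exchange factor probe sets at or above the array median on all 8 arrays, in Shp2f/f (blue) and SCSKO (red), 1 array per point. Gab1 and Gab2 climb towards 2W, Shc1 is highest at D3 and 1W, Sos2 stands out at 2W with 7.87 and 7.92, and the genotypes run close together in most panels.

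Over all members, 7 of 21 probe sets changed with age, against 28.1% of all probe sets. From E16.5 to D3, 3 rose (8.45% of all rose) and 0 fell (8.26% fell), from 1W to 2W 1 rose (2.87%) and 1 fell (2.91%), and from D3 to 1W 0 rose or fell (0.0866% and 0.0377%). The share of members that changed with age was therefore near the background of the array. The rises were of Gab2, Sos1 and Shc1 at D3 and of Sos2 at 2W, and the fall was of Ptpn11 at 2W.

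Sequence upstream of the start site is shown for the genes with such a step in a probe set, so that their proximal promoters can be compared. RefSeq (GRCm38.p6) gave an entry for Ptpn11, Sos1, Sos2 and Shc1, and Gab2 was not matched. Each line is the 250 bases before the start, 5′ to 3′ on the strand of the gene. Capitals mark matches, on either strand, to CCGGAA (an ETS-type motif), GGGCGG (the GC box of Sp1) or CCAAT (the CCAAT box). For Shc1, 1 of its 2 starts is shown.
Ptpn11, chr5:121191398-121191647, minus strand: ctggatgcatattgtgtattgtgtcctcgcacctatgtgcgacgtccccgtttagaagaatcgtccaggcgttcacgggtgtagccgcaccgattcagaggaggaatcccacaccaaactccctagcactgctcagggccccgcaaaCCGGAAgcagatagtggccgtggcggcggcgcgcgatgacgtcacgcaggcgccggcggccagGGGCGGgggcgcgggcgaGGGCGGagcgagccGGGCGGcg
Sos1, chr17:80480454-80480703, minus strand: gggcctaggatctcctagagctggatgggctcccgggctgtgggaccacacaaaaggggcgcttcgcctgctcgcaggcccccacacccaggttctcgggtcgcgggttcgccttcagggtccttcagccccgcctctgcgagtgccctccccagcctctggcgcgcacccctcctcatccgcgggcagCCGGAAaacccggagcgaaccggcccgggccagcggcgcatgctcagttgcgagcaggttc
Sos2, chr12:69681853-69682102, minus strand: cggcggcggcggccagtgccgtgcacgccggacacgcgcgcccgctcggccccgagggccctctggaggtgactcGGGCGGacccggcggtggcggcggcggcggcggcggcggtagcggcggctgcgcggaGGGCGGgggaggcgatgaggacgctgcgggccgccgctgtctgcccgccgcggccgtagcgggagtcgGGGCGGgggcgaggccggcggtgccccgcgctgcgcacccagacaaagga
Shc1, chr3:89418301-89418550, plus strand: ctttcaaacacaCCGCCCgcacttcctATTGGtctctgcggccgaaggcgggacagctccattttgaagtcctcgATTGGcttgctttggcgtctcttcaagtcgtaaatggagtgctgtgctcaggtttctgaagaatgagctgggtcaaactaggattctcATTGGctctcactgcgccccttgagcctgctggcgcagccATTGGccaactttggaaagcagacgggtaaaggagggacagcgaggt

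The Ptpn11 stretch held 31 CpG dinucleotides at 66.8% GC, with 1 CCGGAA and 3 GGGCGG, and the Sos2 stretch held 47 at 82.8% GC, with 3 GGGCGG. Sos1 had 22 CpG dinucleotides at 70.4% GC and 1 CCGGAA. Shc1 had 12 at 54.4% GC, with 1 GGGCGG and 4 CCAAT. Over 32851 promoters of this length the median was 6 CpG dinucleotides and 52.4% GC, CCGGAA was found in 12.0%, GGGCGG in 32.7% and CCAAT in 33.8%. A match of letters is a description of the sequence, and no binding was measured.

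Genotype was then compared over the 4 ages for all members. No member passed, and 0 of 21 was also the number at an unadjusted p under 0.05, which became 1 (Gab2 1439786_at) without E16.5. Of all 45037 probe sets 0 passed (0%), while 3109 had an unadjusted p under 0.05 in limma and 1309 in the methods' t-test. Mean differences of the members (SCSKO minus Shp2f/f) ran from -0.19 for Gab2 1439786_at (95% interval -0.44 to 0.06) to 0.09 for Sos1 1434389_at (-0.16 to 0.35). For Grb2 1418508_a_at the interval was -0.19 to 0.19. These intervals bound the mean differences without adjustment for many tests, and a smaller difference was not detectable with this number of arrays. The adjusted test could also miss larger differences, such as the -0.48 of Dusp6 given below, which did not pass.

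The signs of the members' mean differences leaned to lower values in SCSKO. The median of the 21 mean differences was -0.05, with 15 of 21 below 0, whereas it was 0.01 over all probe sets, with 47.3% below 0, and -0.01 over named genes, with 53.0% below 0. Without 2W the median of the members was -0.022, with 13 of 21 below 0. By age the members' median was 0.07, -0.02, -0.08 and -0.12 from E16.5 to 2W, beside 0.02, 0.00, 0.00 and 0.02 for all probe sets. In order of age, 9, 11, 17 and 14 of the 21 members were lower in SCSKO. The lean was not seen in the fetal pair and hardly at D3 (52.4%), so it rested on the pairs of the later ages. The shares of all probe sets that were lower were 46.8%, 50.3%, 49.9% and 46.6% in that order. Probe sets of a gene are not independent, and 0 of 21 was lower (7.18% of all probe sets) or higher (8.20%) in SCSKO at all 4 ages.

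At no age did a member differ by 2-fold. The share of all probe sets that did was 0.229%, 0.113%, 0.284% and 0.919% from E16.5 to 2W. At 1.5-fold the count of members was also 0, with 2.40%, 0.859%, 2.10% and 5.05% of all probe sets at the same ages. The most extreme single differences were -0.51 for Gab2 1439786_at at 1W, -0.48 for Irs2 at 2W and 0.44 for Sos1 1434389_at at 2W. The robust SD of the differences of all probe sets was 0.22, 0.15, 0.20 and 0.24 in the same order. A change of the genotype difference with the order of the ages was called for 0 of 21 members and for 0 of all probe sets (0%), with 3401 at an unadjusted p under 0.05. Among those were 2 members, Irs2 and the dim Ptpn11 1421196_at (limma adjusted p = 0.627 for both).

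**Figure D3:**
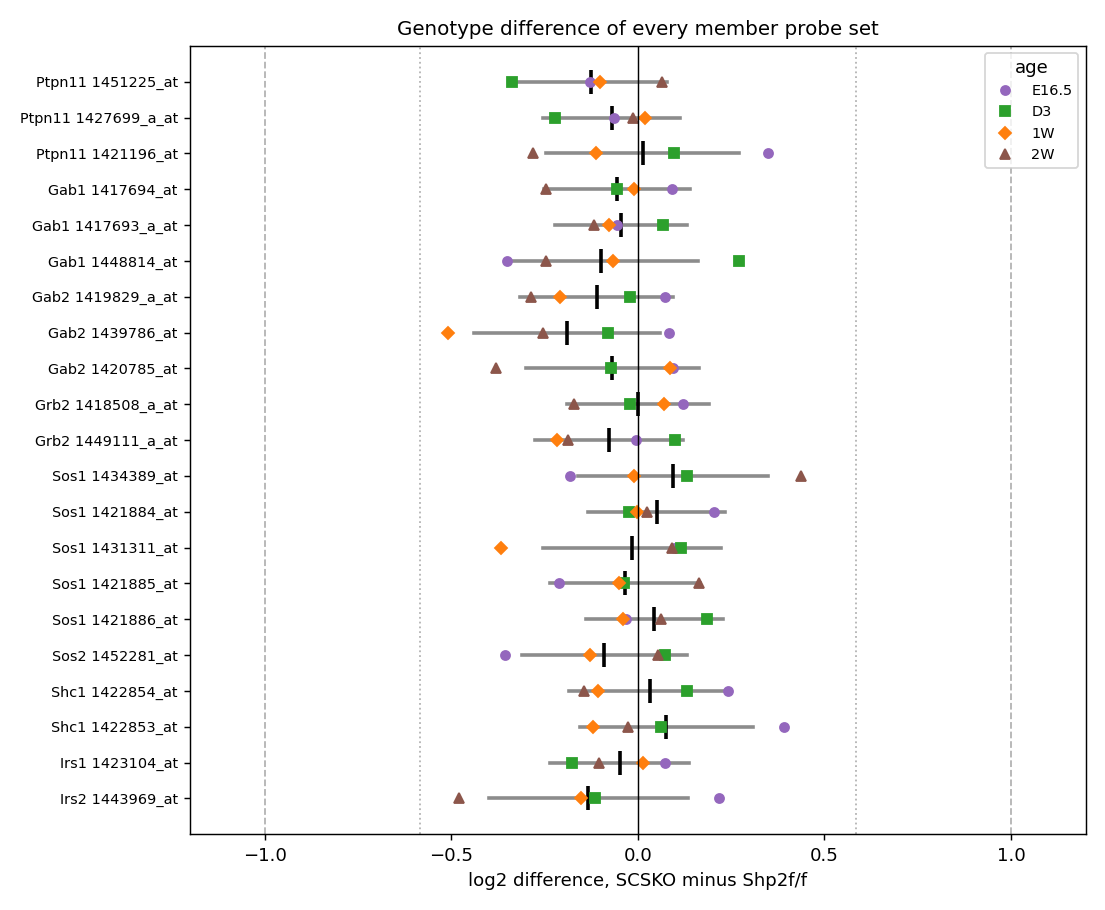
Difference between SCSKO and Shp2f/f (x axis, log2) for each of the 21 member probe sets (y axis) at E16.5, D3, 1W and 2W (symbols), with the mean over the 4 ages (black tick) and its 95% interval from limma (grey bar). Dotted and dashed lines mark 1.5-fold and 2-fold. All symbols lie inside the 1.5-fold lines, between -0.51 and 0.44, and every interval includes 0.

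The rest of the pathway was read from 7 lists, each gene by its brightest probe set. The background for these lists is 18193 named genes, of which 35.1% changed with age. From E16.5 to D3, 11.9% rose and 8.86% fell, and from 1W to 2W 3.86% rose and 4.06% fell. This background is not matched for brightness. Of the named genes 12290 were at or above the median of all probe sets, against 23 of 29 RTK ligands, 27 of 29 RTKs and 21 of 26 ERK targets. When only probe sets at or above that median were tested, 11509 of 22519 changed with age, a larger share. By genotype, 0 genes of every list passed. The median differences of RTKs, other adaptors, phosphatases and PI3K-Akt genes changed sign under at least 1 scaling of the arrays. Leaving out an age also turned the sign for RTK ligands (0.023 without 2W) and for the Ras-ERK cascade (0.0016 without D3 and 0.0019 without 1W).

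Among RTK ligands, 18 of 29 measured changed with age, 9 of them up and 1 down from E16.5 to D3, and 1 up and 4 down from 1W to 2W. Igf1, the ligand of the IGF1 receptor that signals through Irs1 and Irs2, rose from 10.96 and 11.13 (Shp2f/f, then SCSKO) at E16.5 to 12.21 and 12.31 at D3, a step of 1.22 (limma adjusted p = 0.001). Fgf7, a mesenchymal fibroblast growth factor, rose by 2.05 over the same step and Angpt2, an antagonist ligand of Tek, by 1.29. Tgfa, a ligand of Egfr, rose by 0.80 and again by 0.56 from 1W to 2W. By genotype Tgfa differed by -0.29 (95% interval -0.47 to -0.10, limma adjusted p = 0.718) in its brightest probe set, and by 0.14 and -0.03 in the other 2. Vegfc, a lymphatic growth factor, differed by -1.50 at 2W, the 1 ligand past 2-fold at any age. The median difference of the list was -0.05.

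Among RTKs, 17 of 29 changed with age, 7 up and 4 down from E16.5 to D3, and 1 up and 3 down from 1W to 2W. Ntrk2, a neurotrophin receptor, rose by 1.39 at D3, Ddr2, a collagen receptor, by 1.17, and Csf1r, the receptor of macrophages for Csf1, by 0.96. Of 12 macrophage and leukocyte markers, 10 rose over that step, Csf1r itself among them, against 11.9% of named genes. Kit, the receptor of stem cell factor on germ cells, read 6.65 and 6.50 at E16.5, 6.54 and 6.28 at D3, 7.27 and 6.83 at 1W, and 8.42 and 7.97 at 2W (Shp2f/f, then SCSKO). It rose by 1.14 from 1W to 2W (limma adjusted p = 0.004), and SCSKO was the lower array at all 4 ages, with a mean difference of -0.32 (95% interval -0.52 to -0.13, limma adjusted p = 0.718). Its other probe set was dim and differed by a mean of -0.03. Of the 29 RTKs, 3 were lower and 3 higher in SCSKO at all 4 ages, against 1575 and 1213 of 18193 named genes. The median difference of the list was 0.00, with 15 of 29 below 0.

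Of the other adaptors and docking proteins, 13 of 29 changed with age, 6 up and 2 down at the first step and 1 up and 3 down at the last. Sh2b2, an adaptor of the insulin receptor, rose by 0.90 at D3 and fell by 0.85 at 2W. Grb14, an inhibitor of insulin receptor signaling, rose by 0.63 at 2W, and its relative Grb10 fell by 0.78. Dok1, which recruits a Ras GTPase activator, rose by 0.42 at D3. Shc4, a relative of Shc1, read 7.0 in SCSKO against 5.88 in Shp2f/f at 2W, a difference of 1.12. The only other gene of this list at least 2-fold apart at any age was Irs4, at 3.33 and 4.83 at 1W, below the array median in both genotypes and named after its values were seen. These 2 counts, 1 at 1W and 1 at 2W, stand against 0.385%, 0.181%, 0.500% and 1.46% of named genes from E16.5 to 2W. The list's median difference was -0.03.

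Of the other non-receptor tyrosine phosphatases, the family of Shp2, 4 of 15 changed with age. Ptpn18 rose by 0.70 and Ptpn9 by 0.42 from E16.5 to D3, and Ptpn14 fell by 0.72 from 1W to 2W, while Ptpn6, which encodes the relative Shp1, changed within a range of 6.36 to 6.95 (F test, limma adjusted p = 0.037) with no single step past the test. The median difference by genotype was 0.01.

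In the Ras-ERK cascade 6 of 21 changed with age. The small GTPases Rras and Mras rose by 0.80 and 0.55 from E16.5 to D3 and the exchange factor Rasgrp2 by 0.49, whereas Rras2 fell by 0.45 and Rasal2, a Ras GTPase activator, by 0.70. Neither direction was called for any gene from 1W to 2W. Rras2 was higher in SCSKO at all 4 ages, by 0.13, 0.43, 0.32 and 0.44, a mean of 0.33 (95% interval 0.13 to 0.53, limma adjusted p = 0.718), and its other probe set by a mean of 0.19. Map2k1, the gene of Mek1, differed by -0.14 (-0.32 to 0.03). Of the 21 genes, 2 were higher and 4 lower in SCSKO at all 4 ages, against 1213 and 1575 of 18193 named genes. The median of the list was -0.02.

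The readout of the pathway was read from 26 measured genes that ERK is known to induce, many of which feed back on it. Of these, 13 changed with age, 10 up and 0 down from E16.5 to D3. The immediate early genes rose most, Fos from 6.30 and 5.93 (Shp2f/f, then SCSKO) at E16.5 to 10.51 and 9.32 at D3, a step of 3.80, Egr1 by 2.73 and Ier2 by 1.5. Etv5, an ETS factor, rose by 0.88 at D3 and by 0.56 at 2W.

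By genotype the ERK targets had the lowest median difference of the 7 lists, at -0.14, with 21 of 26 (80.8%) below 0, beside 53.0% of named genes. The lists were chosen with earlier results of these data known, so the rank and the counts that follow are descriptions and no independent test. No gene passed the test. At an unadjusted limma p under 0.05 were 5 genes, Spry1, Dusp6, Etv5, Egr2 and Ier2, all lower in SCSKO, against 1149 of 18193 named genes, of which 619 were lower. A total of 6 of the 26 were lower at all 4 ages, against 8.66% of named genes, a count that was 3 after cyclic loess and after quantile normalization. The other adaptors also had 5 of 29 genes at an unadjusted limma p under 0.05, all lower in SCSKO. Lower at all 4 ages were 4 of those 29 and 4 of 21 Ras-ERK genes, so these counts are not particular to the ERK targets. The median of the ERK targets was -0.18 without E16.5, -0.08 without D3, -0.12 without 1W and -0.09 without 2W.

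Dusp6, the phosphatase that removes phosphate from ERK in the cytoplasm, read 8.51 and 8.17 (Shp2f/f, then SCSKO) at E16.5, 8.97 and 8.29 at D3, 9.17 and 8.62 at 1W, and 8.67 and 8.32 at 2W. The mean difference was -0.48 ± 0.09 (SE, 4 pairs; 95% interval -0.69 to -0.28), and it did not pass over all probe sets (limma adjusted p = 0.718). Etv5 read 5.30 and 4.84, 6.16 and 5.74, 6.52 and 6.15, and 7.07 and 6.72 at the same ages, a mean difference of -0.40 (-0.57 to -0.23, limma adjusted p = 0.718). For both genes SCSKO was the lower array of every pair, at steady size for Etv5 and between -0.35 and -0.68 for Dusp6. The other 2 Etv5 probe sets lay below the array median throughout and differed by 0.14 and -0.19.

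Ier2 was also lower in SCSKO at all 4 ages, with differences of -0.13, -0.46, -0.29 and -0.14 from E16.5 to 2W. Some other targets differed most at single ages. Spry1, a feedback inhibitor of RTK signaling, read 8.22 in SCSKO against 9.44 in Shp2f/f at 2W, a difference of -1.22, and differed by 0.04, -0.28 and -0.42 at the younger ages. At D3 Fos differed by -1.19 and Fosb by -1.65, the latter read by a probe set that was above its array median on 1 of 8 arrays. Egr1 differed by -0.61 at D3 and by 0.21 at 2W. At 2W, where Spry1 was furthest apart, marker lists of the serous lining, of peritubular cells and of the endothelium had median differences of -1.17, -0.70 and -0.53. The Sertoli list had one of 0.35. Of 7 Leydig genes 4 were at least 2-fold apart, against 1.46% of named genes, and they split in direction. Star and Cyp17a1 differed by 2.09 and 1.56, Akr1c14 and Hsd11b1 by -1.15 and -1.11. The part of these cells in the Spry1 difference was not tested.

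**Figure D4:**
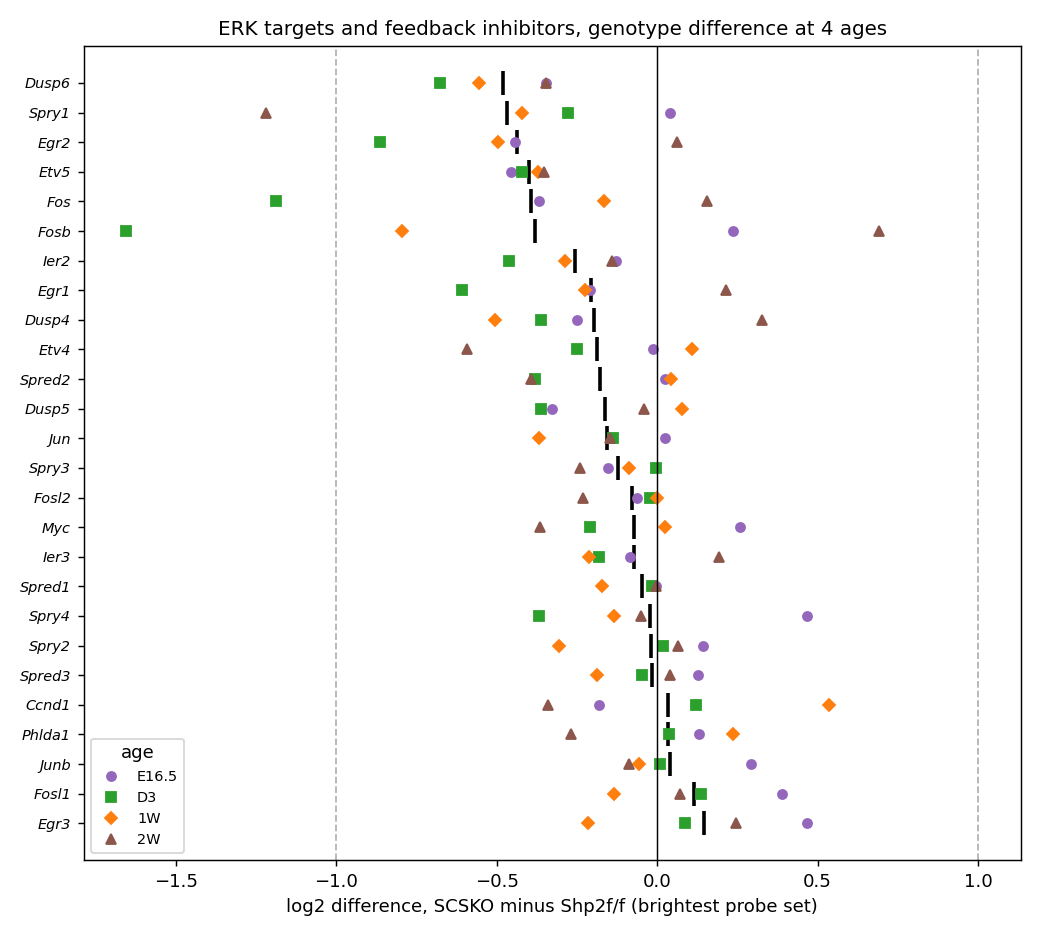
Difference between SCSKO and Shp2f/f (x axis, log2) at E16.5, D3, 1W and 2W (symbols) for 26 ERK targets and feedback inhibitors (y axis), sorted by the mean over the 4 ages (black tick), each gene by its brightest probe set. Dashed lines mark 2-fold. Of the means, 21 of 26 lie below 0, and 6 genes, Dusp6, Etv5 and Ier2 among them, are below 0 at every age. Fos and Fosb at D3 and Spry1 at 2W lie beyond the 2-fold line.

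PI3K-Akt genes, the second route from the Gab and Irs docking proteins, changed with age in 7 of 22 cases. Pik3r3, a regulatory subunit of PI3K, fell by 1.04 from E16.5 to D3 and rose by 0.74 from 1W to 2W, when Rictor, a subunit of mTORC2, rose by 0.66 and the transcription factor Foxo1 by 0.55. Tsc1, an inhibitor of mTORC1, fell by 0.52 at D3. Their median difference by genotype was 0.03, with 6 of 22 below 0, and was -0.00055, with 11 of 22 below 0, when each pair of arrays was centred on its median.

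Finally, the genes most like Ptpn11 over the 8 arrays were listed among 7076 bright and variable genes, by Pearson's r to its brightest probe set. They were Fzr1 (r = 0.927), an activator of the anaphase-promoting complex, Mapk13 (0.918), a p38 kinase, Nes (0.911), an intermediate filament, Mmab (0.909), a cobalamin enzyme, and Scx (0.903), a transcription factor of tendon. In all 5 both 2W arrays lay below both 1W arrays, as for Ptpn11, which the choice by likeness to Ptpn11 favoured in advance. The order depended on the measure, since 1 of the 5 was also among the top 5 by Spearman's rho and 0 by the mean of the Ptpn11 probe sets. The arrays share their ages and scaling, so that these are descriptions with no test.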

How the data were processed

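Total RNA of whole testis was hybridized to Affymetrix mouse arrays. The labels give the RNeasy Mini Kit for its isolation, the methods TRIzol. The authors deposited intensity values on a linear scale for 45101 probe sets on 8 arrays, already normalized between arrays. The tool listed in their notes is RMA, with no version, and the sources used here give no other setting. Values lay between 3.05 and 18038, and array medians between 28.3 and 29.9. No scanner files were used. Precision is limited by having 8 arrays. Array quality was uneven. The difference between the ends of the Gapdh transcript (log2) was 0.23 for the SCSKO array of 2W and between 0.02 and 0.13 for all others. The mean of the poly-A spike controls (log2) was 6.59 on that array, against 7.12 on its Shp2f/f pair. Both E16.5 arrays, at 6.39 and 6.30 (Shp2f/f, then SCSKO), had lower spike means than all later arrays. The part of array quality in the 2W differences and in the step from E16.5 to D3 was not tested.

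The deposited intensity was turned into log2 with no pseudocount, and 64 control probe sets were removed. Names came from the platform annotation, in which 34958 probe sets had 1 symbol, 932 several and 9211 none. The identifiers of 34754 were found in RefSeq (GRCm38.p6) and 0 symbols were updated. The brightest probe set stood for a gene in the lists, and 9010 genes had several. A probe set was called bright at or above the median.

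Genotype was fitted with limma over all 8 arrays with age as a block, and age as a factor with genotype as a block. A slope of the genotype difference over the order of the ages was fitted as well. Benjamini-Hochberg adjustment ran over all 45037 probe sets, with a threshold of 0.05. Within an age, 2-fold and 1.5-fold differences were counted. Ptpn11 was also tested by exact sign-flip permutation of its 4 pairs, two-sided. The scripts were tested on simulated data. Alternatives covered scaling, pseudocount, filters, unit, blocks, the methods' t-test and leaving out each age.

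The members and lists were chosen with earlier results of these data known. All member probe sets are given. From each list, the genes named were among up to 4 with the largest mean difference and up to 4 with the smallest p for age, at or above the median of all probe sets, and those 2-fold apart at any age. R 4.3.3, limma 3.58.1, Python 3.11.15, numpy 2.4.6, pandas 2.3.3, scipy 1.17.1 and matplotlib 3.10.9 were used.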

Additional observations from a re-analysis of the deposited data

Results flagged for a closer look

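The genotype differences of each member probe set at the 4 ages were examined for a single age far from the others. In Sos1 1431311_at, the difference at 1W was -0.37 on the log2 scale, and its gap to the nearest other age took 0.950 of the whole range, above the limit that Dixon's test sets for 4 values. At 1W its log2 intensity was 3.16 in SCSKO against 3.52 in Shp2f/f, and it lay below the array median on all 8 arrays. A total of 21 probe sets were examined, and chance gives such a gap in about 1 of 20.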

How the results depend on the processing

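The count of probe sets called by genotype was 0 under all 14 alternatives, members included. The count called by age was 12647, with 7 members. A linear trend over the order of the ages gave 6790 with 4 members, and the mean of the probe sets of a gene gave 6316 genes with 4 members, where fewer units were tested. Leaving out each age in turn gave 3487 to 11212 with 2 to 6 members. An intensity trend of the variance gave 10 members. The fall of Ptpn11 1451225_at from 1W to 2W had a limma adjusted p of 0.053 without the genotype block, 0.051 after quantile normalization and 0.146 for the mean of its probe sets (-0.25). The step of Shc1 1422854_at to D3 had 0.059 after quantile normalization and 0.0502 for the mean of the probe sets. The cause was not tested.

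Mean genotype differences near 0 turned sign. Ptpn11 1421196_at went from 0.01 to -0.014 after median centring, -0.024 after cyclic loess and -0.033 after quantile normalization, and Grb2 1418508_a_at from -0.00030 to 0.032 and 0.048 after the last 2. Leaving out each age in turn gave -0.10 to 0.11 for Ptpn11 1421196_at, -0.10 to 0.0075 for Gab1 1417694_at, -0.12 to 0.036 for Gab2 1420785_at and -0.041 to 0.057 for Grb2 1418508_a_at. For the Sos1 probe sets it gave -0.021 to 0.19 (1434389_at), -0.0011 to 0.075 (1421884_at), -0.060 to 0.10 (1431311_at), -0.10 to 0.025 (1421885_at) and -0.0040 to 0.072 (1421886_at), and for Shc1 -0.039 to 0.090 (1422854_at) and -0.029 to 0.14 (1422853_at). After quantile normalization the median was 0.031 for RTKs and 0.0020 for other adaptors, and centring gave -0.020 for phosphatases and -0.00055 for PI3K-Akt genes. The median of the ERK targets lay between -0.17 and -0.10 under the same 3 scalings and a pseudocount of 16. These values of lists were chosen after seeing the data. Each genotype and age had 1 array, so the pairs were the ages, and the methods' t-test paired by age gave 2703 probe sets at an unadjusted p under 0.05 and 0 after adjustment.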
